A study of Mus musculus with 18 samples.

Results

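The genes described here are 8 genes of meiotic recombination, Spo11, Prdm9, Dmc1, Meiob, Hfm1, Msh4, Msh5 and Mlh3. They were taken by symbol from a table of 20985 genes measured by RNA sequencing in 18 whole testis libraries, and all 8 were found and passed the filter on low values. All mice were of the outbred ICR stock and aged 10 weeks, and the libraries fall into 6 groups of 3. Mice of the STZ+AOS group received streptozotocin (STZ), a compound toxic to pancreatic beta cells, and alginate oligosaccharide (AOS), short sugar chains from brown algae, at 10 mg/kg. Mice of the STZ+AOS-FMT group received STZ and a faecal microbiota transplant (FMT) that the label ties to AOS at 10 mg/kg, read here as material from AOS-dosed donors. Mice of the STZ+control-FMT group received STZ and a transplant read as material from control donors. The STZ group received STZ alone, the AOS group AOS alone at 10 mg/kg, and the control group is given by that name only. The labels do not give the STZ dose or route, the diet, or whether libraries of a group came from separate animals, so the p-values speak only for the spread among libraries, which may be technical.

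Meiotic recombination begins with programmed DNA double-strand breaks in early prophase spermatocytes. PRDM9 marks the sites by methylating histone H3, SPO11 cuts there, and the exposed strands are coated by recombinases and single-strand binding proteins that carry out the search for the homologous chromosome. A minority of the resulting joints is stabilised by the MSH4-MSH5 dimer and the helicase HFM1 and cut into crossovers by a nuclease that contains MLH3. In the mouse, loss of any of these 8 genes disturbs male meiosis. Whole testis RNA mixes germ cells of all stages with somatic cells, so fewer cells of a type and less RNA per cell cannot be told apart in these data.

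The genes lie on 6 chromosomes of GRCm38 (mm10), with coordinates from GENCODE M21. Spo11 is at chr2:172977700-172993576 on the plus strand, Prdm9 at chr17:15543079-15564354 on the minus strand and Dmc1 at chr15:79561497-79605109 on the minus strand. Meiob is at chr17:24804289-24839788 on the plus strand and Hfm1 at chr5:106840192-106926321 on the minus strand. Msh4 is at chr3:153857149-153906138, Msh5 at chr17:35028605-35046745 and Mlh3 at chr12:85234520-85270599, all on the minus strand. No annotated gene that overlaps a member has a row of its own in the table, and a single overlapping gene, the snoRNA gene Gm24395 on the opposite strand, touches an exon (of Msh4).

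Promoter windows of 300 bases, from 250 bases before to 50 bases after an annotated start, were available from RefSeq (GRCm38.p6) for 6 of the 8 genes, all but Spo11 and Meiob. Those of Prdm9 (chr17:15564305-15564604) and Dmc1 (chr15:79605060-79605359) are printed because these genes differed between groups, and those of Hfm1 (chr5:106925841-106926140) and Msh5 (chr17:35046573-35046872) for contrast. All run 5′ to 3′ on the minus strand, and capitals mark the motif matches described next.
Prdm9: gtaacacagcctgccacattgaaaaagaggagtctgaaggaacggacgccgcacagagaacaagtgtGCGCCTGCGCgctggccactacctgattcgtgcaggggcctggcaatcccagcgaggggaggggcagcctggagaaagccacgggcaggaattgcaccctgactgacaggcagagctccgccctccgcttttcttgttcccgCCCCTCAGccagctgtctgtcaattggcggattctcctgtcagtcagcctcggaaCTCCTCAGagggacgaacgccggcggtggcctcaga
Dmc1: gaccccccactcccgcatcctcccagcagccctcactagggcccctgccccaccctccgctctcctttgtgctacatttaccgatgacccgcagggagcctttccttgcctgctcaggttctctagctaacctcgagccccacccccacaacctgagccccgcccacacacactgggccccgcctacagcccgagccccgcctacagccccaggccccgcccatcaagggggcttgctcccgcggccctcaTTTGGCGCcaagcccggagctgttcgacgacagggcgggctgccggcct
Hfm1: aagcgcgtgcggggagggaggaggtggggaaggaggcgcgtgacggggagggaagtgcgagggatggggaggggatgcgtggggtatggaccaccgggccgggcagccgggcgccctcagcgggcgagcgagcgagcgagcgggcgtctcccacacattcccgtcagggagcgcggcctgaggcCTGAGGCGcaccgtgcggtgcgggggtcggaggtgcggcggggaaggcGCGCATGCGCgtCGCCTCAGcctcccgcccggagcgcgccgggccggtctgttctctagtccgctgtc
Msh5: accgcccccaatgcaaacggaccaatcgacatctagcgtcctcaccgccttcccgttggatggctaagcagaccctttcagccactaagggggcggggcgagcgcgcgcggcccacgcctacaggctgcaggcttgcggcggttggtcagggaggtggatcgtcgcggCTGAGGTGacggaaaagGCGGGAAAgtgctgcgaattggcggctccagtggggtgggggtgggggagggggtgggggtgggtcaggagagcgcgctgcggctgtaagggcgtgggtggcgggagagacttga

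The motifs were the STRA8 motif CNCCTCAG, the NRF1 motif (GCGC, any base, then TGCGC), a loose E2F motif TTTNNCGC, the E-box CACGTG and the MYB motif AACNGTT, each searched on both strands. They were chosen after these promoter sequences had been seen, so the counts describe the windows and support nothing about the factors. STRA8, which drives the switch to meiosis in the mouse, had matches in Prdm9 at offsets -41 and 14 from the start, in Hfm1 at -66 and -6 and in Msh5 at -82, that is in 3 of 6 genes against 9.12% of 27025 genes with a RefSeq window. NRF1 matches stood in Prdm9, Hfm1 and Mlh3 (3 of 6, against 5.19%) and E2F matches in Dmc1 and Msh5 (2 of 6, against 5.93%). None of the 6 had a MYB match (5.01% of all genes) or an E-box (8.09%). No match overlapped another in these windows. A further Prdm9 window, at a second annotated start (chr17:15563282-15563581, not printed), held no match of any of these motifs, nor did the Msh4 window. The printed Prdm9 and Dmc1 windows had no motif in common, and the Dmc1 window, unlike that of Msh5, held no STRA8 match.

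The table names no unit. Its values were read as FPKM, fragment numbers divided by transcript length and library size, from how the lowest values fall with transcript length, and levels are compared between genes on that reading. Library sums ran from 561038 to 622169 FPKM, the number of reads per library is unknown, and log2 values of libraries of the same group correlated with Pearson r of 0.9782 to 0.9946 across genes. The first principal component (54.2% of the variance) set the 3 STZ libraries apart from the other 15, with STZ replicate 1 nearest to them. Markers of the testis were present in every group: no gene of the Sertoli, Leydig, spermatogonia, pachytene or spermatid lists was at 0 in all 3 libraries of any group. Of 8 markers of the epididymis, the neighbouring tissue, Lcn5 and Lcn8 were at 0 in all STZ and all control libraries. Lcn9 was at 0 in all STZ libraries. The list summed to 262.4 to 376.1 FPKM in STZ against 275.3 to 485.3 FPKM in control. Most of the control sum was Cst8, at a mean of 262.2 FPKM (SD 19.4). Crisp1 had a mean of 53.88 FPKM in control (SD 90.8), so the control libraries differed widely in it. No marker of the list was at 0 in all 3 STZ+control-FMT libraries.

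The 8 genes covered a range of levels that kept the same ends in every group. In control testes Spo11, the break-forming enzyme, stood highest at 21.84 ± 1.98 FPKM (SD, n = 3, as for all means here), above Meiob at 14.4 ± 0.713 and Mlh3 at 7.773 ± 0.23. Dmc1, Msh5, Hfm1 and Msh4 followed at 5.55 ± 0.32, 5.547 ± 0.62, 5.277 ± 0.0603 and 5.11 ± 0.439 FPKM, and each overlapped its neighbour in that order. Prdm9 was lowest at 2.223 ± 0.222 FPKM. In STZ testes the first and last places were the same, but Dmc1 reached 7.68 ± 0.648 FPKM and its libraries overlapped those of Mlh3 at 7.87 ± 0.766. Dmc1 lay below every library of Mlh3 in each of the 5 other groups.

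**Figure D1:**
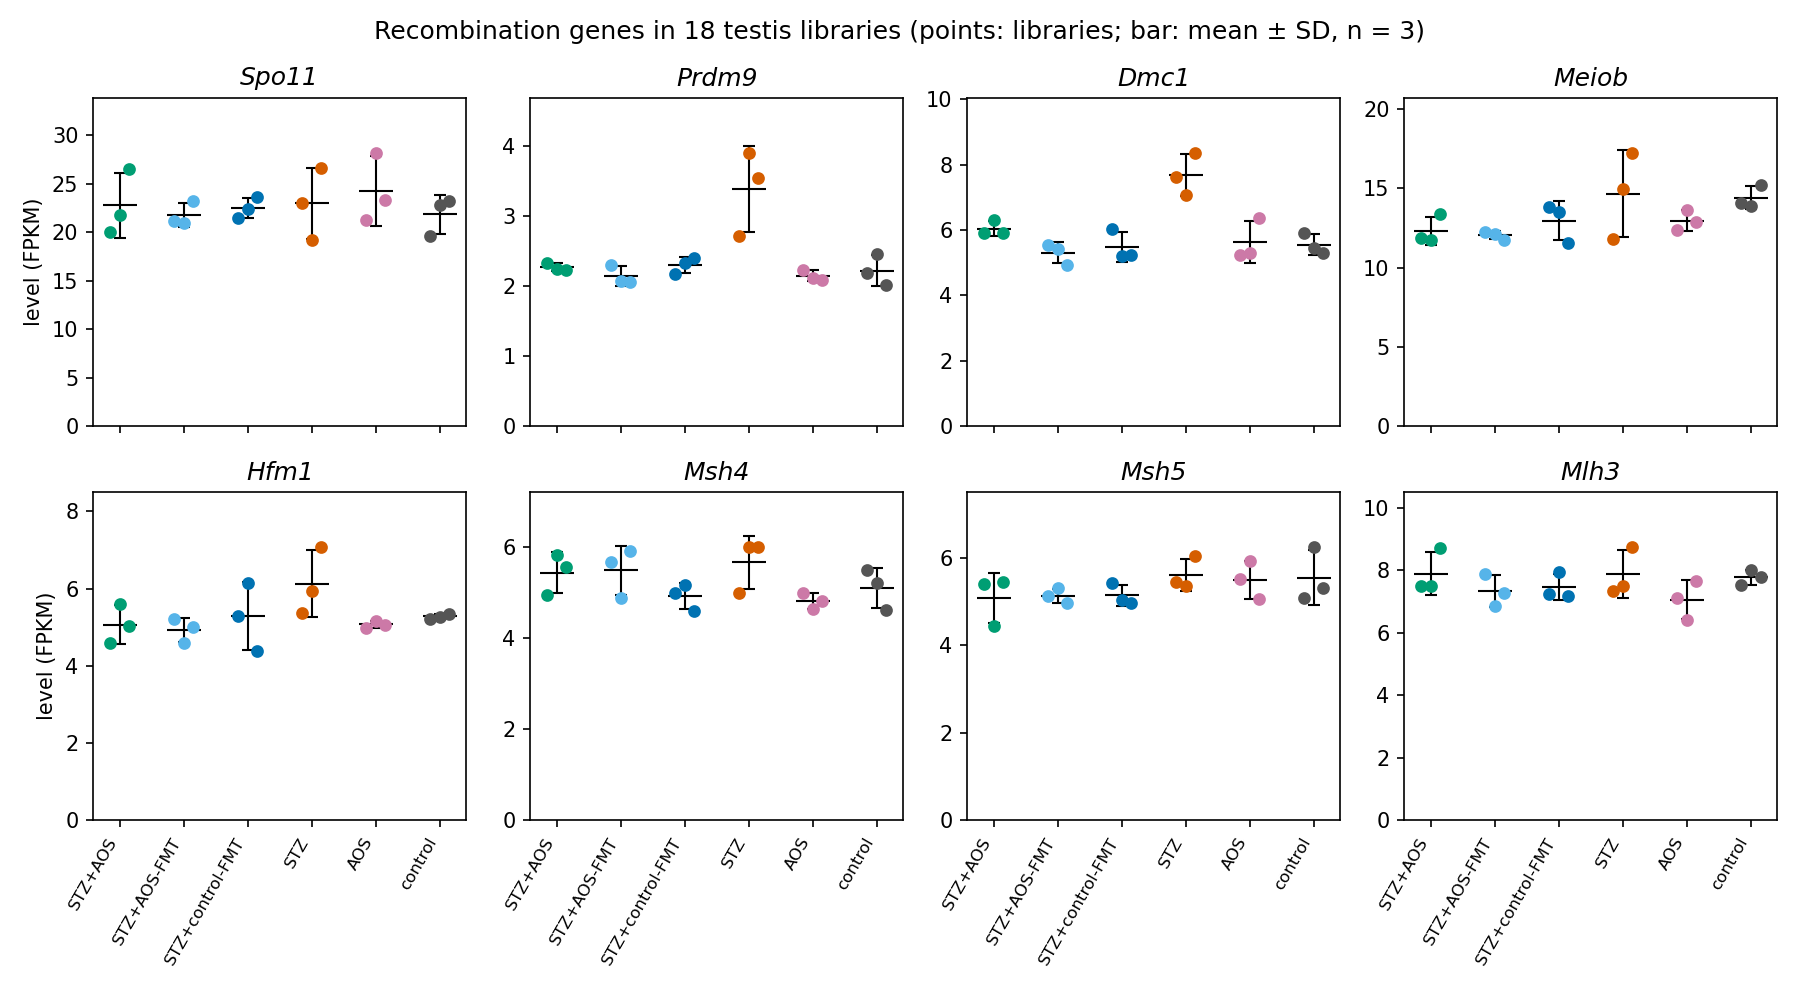
Level of each recombination gene (FPKM, y axis from 0) in the 6 groups (x axis); points are libraries, bars the mean ± SD of 3. The 3 STZ points of Prdm9 (2.72 to 3.91) and of Dmc1 (7.07 to 8.36) lie above all 15 other libraries, while those of the other 6 genes overlap at least 1 other group; after quantile normalization or median centring the STZ differences of Prdm9 and Dmc1 are no longer called.

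The first comparison was STZ against control. On the values as deposited, Prdm9 and Dmc1 rose in STZ testes, 1.53-fold and 1.38-fold, and Spo11, Meiob, Msh4, Msh5 and Mlh3 lay within 1.11 times of control. That split depended on scaling: after quantile normalization or median centring, Prdm9 and Dmc1 lay slightly above control without being called and Meiob, Msh4, Msh5 and Mlh3 were called lower. Most of all called genes were lower under both of these scalings. Tests are limma on log2(FPKM + 1) over 14164 genes, with Benjamini-Hochberg adjusted p under 0.05 as the call. The 2 of 8 genes called higher stand against 43.2% of all tested genes called higher (12% lower, 55.2% in either direction), so the share among the 8 was below the background. Their median log2 difference was 0.09, beside 0.17 over all tested genes.

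Prdm9, which encodes the histone methyltransferase that chooses the break sites, was at 2.72, 3.91 and 3.55 FPKM in STZ libraries, against 2.19, 2.46 and 2.02 FPKM in control libraries. All 3 STZ libraries were higher than all 3 control libraries, and replicate 2 was the highest of the 18. The log2 difference was 0.44 (SE 0.092, 95% interval 0.244 to 0.635, limma adjusted p = 0.000926), and without STZ replicate 1 it was 0.56. The same gene ranged only from 2.02 to 2.46 FPKM over the 15 libraries outside the STZ group, a 1.22-fold range. Spo11 behaved otherwise. It was at 23.05, 19.23 and 26.61 FPKM in STZ libraries, against 19.56, 22.77 and 23.18 FPKM in control libraries, and the lowest of all 18 libraries was an STZ one. The groups overlapped (log2 difference 0.06, 95% interval -0.196 to 0.319, limma adjusted p = 0.686). Its spread within groups was the widest of the 8, with a residual SD of 0.162 on the log2 scale at percentile 72 of all tested genes.

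Dmc1 encodes the meiosis-specific recombinase that forms filaments on the cut ends. It was at 7.61, 7.07 and 8.36 FPKM in STZ libraries, against 5.91, 5.44 and 5.3 FPKM in control libraries. Every STZ library was again above every control library, and above the other 12 libraries too. The log2 difference was 0.41 (SE 0.0824, 95% interval 0.23 to 0.58, limma adjusted p = 0.000745), and 0.41 without STZ replicate 1. For both Prdm9 and Dmc1 all 3 STZ libraries exceeded all 15 others, as they did for 29.7% of all tested genes. With Hfm1, 3 of 8 genes had all STZ libraries above all control libraries, against 42.1% of all tested genes. Meiob, whose product binds single-stranded DNA with SPATA22 and replication protein A, spread over 11.82, 14.95 and 17.24 FPKM in STZ libraries, against 14.1, 13.88 and 15.21 FPKM in control libraries. The STZ libraries lay on both sides of the control ones (log2 difference 0.01, 95% interval -0.203 to 0.226, limma adjusted p = 0.933).

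Among the crossover genes, Hfm1, a helicase gene, came closest to a call. It was at 5.37, 5.93 and 7.08 FPKM in STZ libraries, against 5.22, 5.27 and 5.34 FPKM in control libraries. The groups did not overlap, the nearest libraries being 5.37 (STZ) and 5.34 (control), but the difference of 0.18 was not called (SE 0.102, limma adjusted p = 0.153); without STZ replicate 1 it was 0.25 and called (adjusted p = 0.045). Msh4 was at 4.99, 6 and 6.01 FPKM in STZ libraries, against 5.49, 5.21 and 4.63 FPKM in control libraries (log2 difference 0.12, 95% interval -0.0607 to 0.31). Its partner Msh5 was at 5.45, 5.35 and 6.03 FPKM in STZ libraries, against 5.08, 6.25 and 5.31 FPKM in control libraries (0.02, interval -0.165 to 0.198). Mlh3, the subunit of the crossover nuclease that gives it its cutting activity, was at 7.35, 7.51 and 8.75 FPKM in STZ libraries, against 7.54, 8 and 7.78 FPKM in control libraries (0.01, interval -0.16 to 0.186). The STZ and control libraries of these 3 genes overlapped, and the intervals leave room for changes of up to 0.31 for Msh4 and about 0.2 for Msh5 and Mlh3 on the log2 scale.

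The STZ libraries did not move alike. Of the 8 genes, 4 were above their control mean in STZ replicate 1, 5 in replicate 2 and 8 in replicate 3. The median difference of the 8 from control, on the log2 scale, was 0.002 in replicate 1, 0.10 in replicate 2 and 0.26 in replicate 3, beside 0.09, 0.21 and 0.24 for the median of all tested genes. Prdm9 and Dmc1 exceeded the highest control library in each of the 3.

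The tested genes as a whole shifted between these groups, with a median log2 difference of 0.17 in STZ against control. Relative to that median, Prdm9 was 0.27 and Dmc1 0.23 higher, Hfm1 0.004 higher, and Spo11, Meiob, Msh4, Msh5 and Mlh3 between 0.05 and 0.16 lower. Quantile normalization moved the median of all genes to -0.06 and median centring to -0.17. Of 14164 tested genes, 7823 were called as deposited, 7249 after quantile normalization and 8797 after median centring. The share of called genes that were higher was 78.2%, 43.5% and 30.4% in that order, so most called genes were lower after either rescaling. Under quantile normalization Prdm9 differed by 0.03 and Dmc1 by 0.02, both uncalled, and Meiob, Hfm1, Msh4, Msh5 and Mlh3 were called lower, by -0.26, -0.22, -0.27, -0.37 and -0.36. Under median centring Prdm9 differed by 0.10 and Dmc1 by 0.06, uncalled, and Meiob, Msh4, Msh5 and Mlh3 were called lower, by -0.33, -0.22, -0.33 and -0.33. When libraries were instead centred on 15 synaptonemal complex and axis genes, Prdm9 (0.44) and Dmc1 (0.40) stayed called and no other member was. That centring hardly changed the values of this comparison: the median of all tested genes was 0.171 with it and 0.172 as deposited. Prdm9 and Dmc1 had the highest differences of the 8 as deposited and after quantile normalization. Both centrings shift all genes of a library by the same amount, so they cannot change that order.

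**Figure D2:**
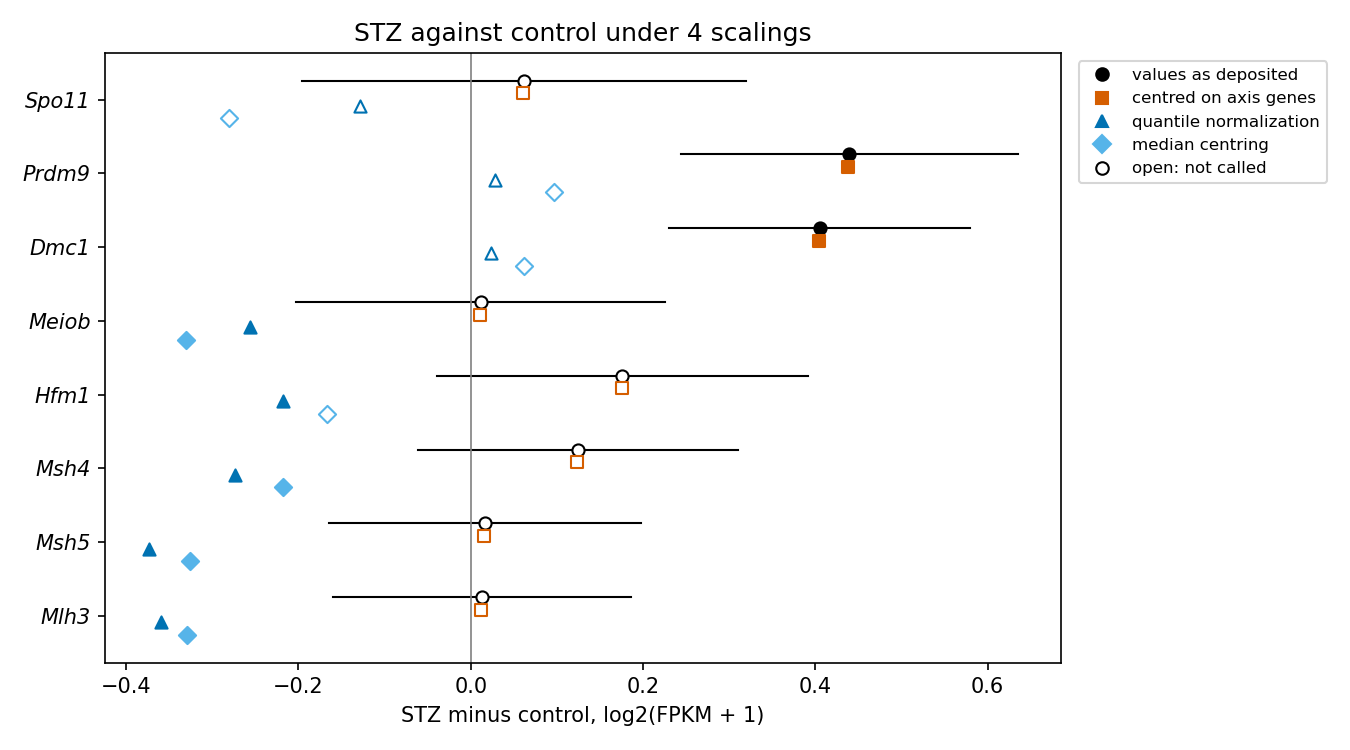
STZ minus control for each gene (x axis, log2(FPKM + 1)) under 4 scalings; bars are 95% intervals of the values as deposited and open symbols are uncalled. Prdm9 and Dmc1 are called higher as deposited and with axis centring, which hardly moves these values. They lie at 0.02 to 0.10 and uncalled after quantile normalization or median centring. There Meiob, Msh4, Msh5 and Mlh3 turn to called lower, and most of all called genes are lower.

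Ratios between genes of the same library do not change when a library is multiplied by 1 factor. Per 100 FPKM of Sycp3, which encodes a lateral element protein of the synaptonemal complex, Prdm9 was at 1.54, 2.07 and 1.63 in STZ libraries, against 1.15, 1.26 and 1.1 in control libraries. Per the same 100 FPKM, Dmc1 was at 4.3, 3.73 and 3.84 in STZ libraries, against 3.11, 2.79 and 2.88 in control libraries. Both ratios were higher in every STZ library than in any control library, with an exact permutation p of 0.1, the smallest that 3 against 3 can give (two-sided). Against members of the crossover step, per 100 FPKM of Mlh3, Dmc1 was at 104, 94.1 and 95.5 in STZ libraries, against 78.4, 68 and 68.1 in control libraries, and Prdm9 at 37, 52.1 and 40.6 in STZ libraries, against 29, 30.8 and 26 in control libraries (exact p = 0.1 each). Per 100 FPKM of Sycp1, the transverse filament gene, Prdm9 was again apart (5.16, 4.9 and 4.83 in STZ, 3.33, 3.3 and 3.05 in control), but Dmc1 was not: 14.4, 8.87 and 11.4 in STZ libraries overlapped 8.99, 7.3 and 7.99 in control libraries (exact p = 0.2). That Prdm9 ratio was not particular to STZ. Every library of STZ+AOS (3.98, 3.42 and 3.48), STZ+AOS-FMT (3.46, 3.59 and 3.47) and STZ+control-FMT (3.89, 3.81 and 5.24) also exceeded control. So did AOS without STZ (3.93, 3.85 and 3.55, exact permutation p = 0.1 in each group). STZ+control-FMT replicate 3 (5.24) exceeded all STZ libraries, and per 100 FPKM of Sycp3 it (1.61) exceeded STZ replicate 1 (1.54). Hfm1 was also apart per 100 FPKM of Sycp3 (3.03, 3.13 and 3.25 in STZ, 2.75, 2.7 and 2.9 in control) and of Mlh3. In all, 30 ratios to Sycp3, Sycp1, Msh5 or Mlh3 were compared, 9 reached the smallest p, and their Benjamini-Hochberg adjusted p was 0.333. The 30 hold the pair of Msh5 and Mlh3 in both directions (exact permutation p = 0.9 each). The share of all tested genes with such ratios apart was not worked out. As deposited, 42.1% of all tested genes had all STZ libraries above all control libraries in level, which is not a share of ratios. Sycp3 itself differed by 0.03. The ratios to Msh5 and Mlh3 were added after the values had been seen.

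Other genes of the pathway, from lists of the same steps, are given by count. The counts as deposited stand against 43.2% of all tested genes called higher and 12% called lower. After quantile normalization 7249 of 14164 tested genes were called, 43.5% of these higher and the rest lower. Of 9 tested genes of break formation, 4 were called higher in STZ and none lower, a share near that background (median log2 difference 0.31, beside 0.17 for all genes); after quantile normalization 2 were higher and 2 lower, with a median of -0.07. The 4 were Prdm9, Zcwpw1, Hells and Mei1. Zcwpw1, the reader of the PRDM9 mark, was at 17.77 ± 0.258 FPKM in STZ against 12.56 ± 0.551 FPKM in control (0.47, limma adjusted p = 2.17e-05), and Hells, a chromatin remodeller that acts with PRDM9, at 18.2 ± 1.59 FPKM in STZ against 12.8 ± 1.34 FPKM in control (0.48). Mei1, needed for break formation, was at 2.19 ± 0.271 FPKM in STZ against 1.423 ± 0.172 FPKM in control (0.40). Mei4 was below the filter and not tested.

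Of 30 genes of resection and strand exchange, 10 were called higher and 1 lower (median 0.10), but 3 higher and 12 lower after quantile normalization. Rpa3, a subunit of replication protein A, was at 6.603 ± 1.13 FPKM in STZ against 3.44 ± 0.585 FPKM in control (0.77, limma adjusted p = 0.000202), and Rpa2, another subunit, at 11.4 ± 1.62 FPKM in STZ against 7.98 ± 0.448 FPKM in control (0.46). Rpa1, the large subunit of the same complex, was called lower, at 47.89 ± 5.04 FPKM in STZ against 55.93 ± 2.49 FPKM in control (-0.22, limma adjusted p = 0.0376), with overlapping libraries. It was named after its values were seen. Sfr1, an accessory factor of the recombinases, was at 74 ± 9.89 FPKM in STZ against 52.77 ± 1.07 FPKM in control (0.47).

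Of 18 crossover genes, 3 were called higher and 1 lower (median 0.05), and 0 higher and 11 lower after quantile normalization. Tex11, a partner of the MSH4-MSH5 pathway on the X chromosome, was at 5.78 ± 0.159 FPKM in STZ against 4 ± 0.286 FPKM in control (0.44, limma adjusted p = 0.00395), and Slx4, a scaffold for nucleases, at 38.31 ± 1.66 FPKM in STZ against 45.44 ± 2.04 FPKM in control (-0.24, adjusted p = 0.000529). Cdk2, a kinase that marks crossover sites, was at 29.74 ± 1.76 FPKM in STZ against 24.97 ± 0.911 FPKM in control (0.24).

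Of 15 synaptonemal complex and axis genes, 2 were called higher and 4 lower (median -0.02), and 0 higher and 2 lower after quantile normalization. Rec8, the meiotic cohesin gene, was at 33.31 ± 3.88 FPKM in STZ against 39.51 ± 0.906 FPKM in control (-0.25, limma adjusted p = 0.00403), Syce1 at 241.7 ± 8.07 FPKM in STZ against 274.3 ± 11.2 FPKM in control (-0.18) and Syce2 at 211.1 ± 37.7 FPKM in STZ against 256.2 ± 8.99 FPKM in control (-0.29). The STZ and control libraries of Syce2 overlapped. A gene listed as 4930447C04Rik, known as Six6os1 and a central element component, was at 13.97 ± 2.06 FPKM in STZ against 9.543 ± 1.39 FPKM in control (0.50). Sycp3 was at 194.7 ± 21 FPKM in STZ against 189.6 ± 5.49 FPKM in control, and Sycp1 at 68.66 ± 14.2 FPKM in STZ against 68.84 ± 4.9 FPKM in control, neither of them called.

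After median centring, which moved the median of all tested genes to -0.17, 0 genes of break formation were called higher and 2 lower (median -0.03), 1 higher and 17 lower of strand exchange (-0.24), 0 and 12 of crossover formation (-0.29) and 0 and 10 of the axis (-0.37). Of all 14164 tested genes, 8797 were called after median centring, 30.4% of these higher and the rest lower. The median of break formation lay above that of all tested genes and the other 3 below it. Of the genes named from these lists, Cdk2 turned negative and uncalled under median centring (-0.10), Sycp3 turned negative and was called lower (-0.31, limma adjusted p = 0.00454), and Sycp1 was called lower as well (-0.37, adjusted p = 0.0059). Zcwpw1, Hells, Rpa3 and Sfr1 stayed called higher after quantile normalization, and of these Rpa3 after median centring as well. Rec8, Slx4 and Rpa1 were called lower under both.

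Germ cell and somatic markers moved beside Prdm9 and Dmc1. Stra8 was at 18.17, 18.24 and 22.36 FPKM in STZ libraries, against 5.76, 9.13 and 8.4 FPKM in control libraries (1.25, limma adjusted p = 9.66e-06), and 5 of 9 meiotic entry genes were called higher and none lower, against 43.2% and 12% of all tested genes. Spermatogonia markers, of which 7 of 9 tested were called higher and none lower, summed to 112.9 to 121.8 FPKM in STZ and 68.87 to 72.09 FPKM in control. Uchl1 alone had a mean of 26.9 FPKM in control and a log2 difference of 1.04, so it weighs heavily in that sum. Pachytene markers, 6 of 10 called lower, summed to 4950 to 5714 FPKM in STZ and 6211 to 6316 FPKM in control, and elongating spermatid markers, 9 of 9 called lower, to 25720 to 47420 FPKM in STZ and 52040 to 58340 FPKM in control. All 12 Sertoli markers were called higher, with sums of 1621 to 2082 FPKM in STZ and 644 to 709.1 FPKM in control, as were 9 of 10 macrophage markers (170.3 to 342.1 FPKM in STZ and 68.49 to 69.35 FPKM in control). Most of the Sertoli sum in control was Clu, at a mean of 483.7 FPKM (log2 difference 1.53). Leydig markers differed among the STZ libraries: they summed to 1799 FPKM in replicate 1, 12010 in replicate 2 and 12810 in replicate 3. In control they summed to 3523 to 4045 FPKM, with Insl3 alone at 3144. Of the Leydig markers 1 of 8 was called higher with all libraries and 6 of 8 without STZ replicate 1. That fit called 8797 of all tested genes, 76% of these higher. Among the STZ libraries Prdm9 was also lowest in replicate 1, but Dmc1 was lowest in replicate 2 (7.07 FPKM). After quantile normalization 2 of the meiotic entry genes were higher and 2 lower, 4 and 1 of the spermatogonia markers, 1 and 4 of the pachytene markers, 0 and 7 of the elongating spermatid markers, 10 and 0 of the Sertoli markers and 8 and 0 of the macrophage markers; Stra8 stayed called (1.02). The quantile counts stand against 7249 called of 14164 tested genes, 43.5% of these higher. No marker of these lists was at 0 in all libraries of either group. Their part in the differences of Prdm9 and Dmc1 was not tested.

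**Figure D3:**
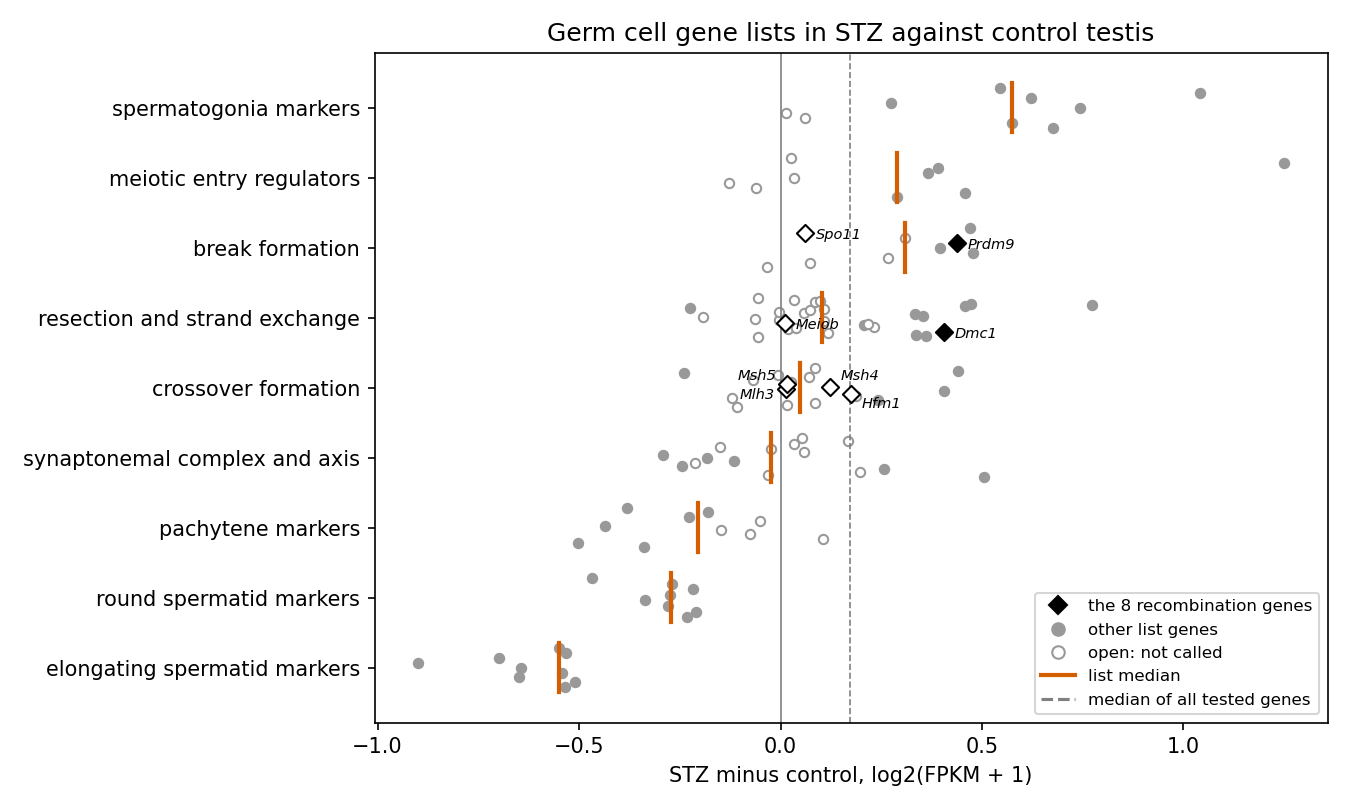
STZ minus control (x axis, log2(FPKM + 1), as deposited) for genes of 9 germ cell lists (rows); diamonds are the 8 recombination genes, filled symbols are called, orange bars list medians and the dashed line the median of all tested genes (0.17). Medians run from 0.58 for spermatogonia markers to -0.55 for elongating spermatid markers; after quantile normalization those of break formation, meiotic entry, strand exchange and crossover genes lie below 0.

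The next comparisons set each treated STZ group against STZ. They share the same 3 STZ libraries with each other and with the comparison above, so their values are given side by side and not as separate evidence. In STZ+AOS, Prdm9 and Dmc1 were called lower than in STZ, 2 of 8 against 43.1% of all tested genes lower and 11.9% higher. In STZ+AOS-FMT, Prdm9, Dmc1, Meiob and Hfm1 were called lower, 4 of 8 against 44.5% lower and 12% higher, and in STZ+control-FMT, Prdm9 and Dmc1, 2 of 8 against 39.9% lower and 11.4% higher. None of the 8 was called higher in any of the 3 as deposited. After quantile normalization or median centring, Msh5 and Mlh3 were called higher in all 3 and Prdm9 and Dmc1 were called in none. The share of all tested genes called under these scalings was not worked out for the treated groups. As deposited, the median difference of all tested genes was -0.17, -0.18 and -0.15 in the order of groups just given. It was 0.07, 0.07 and 0.05 after quantile normalization and 0.18, 0.18 and 0.16 after median centring.

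Prdm9 was at 2.34, 2.25 and 2.23 FPKM in STZ+AOS libraries, 2.31, 2.08 and 2.06 in STZ+AOS-FMT libraries and 2.17, 2.34 and 2.4 in STZ+control-FMT libraries, against 2.72, 3.91 and 3.55 in STZ libraries. All 9 treated libraries were below all 3 STZ libraries, and the 3 libraries of a treated group lay below those of STZ for 41.1%, 42.7% and 38.2% of all tested genes in the same order of groups. On the log2 scale the differences were -0.42 (SE 0.092, limma adjusted p = 0.00144), -0.47 (adjusted p = 0.000495) and -0.40 (adjusted p = 0.00205). Quantile normalization made the first of these 0.01 and left the others at -0.03 and -0.04, none of them called.

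Dmc1 was at 5.92, 6.3 and 5.91 FPKM in STZ+AOS libraries, 5.54, 5.43 and 4.94 in STZ+AOS-FMT libraries and 6.02, 5.2 and 5.23 in STZ+control-FMT libraries, against 7.61, 7.07 and 8.36 in STZ libraries. Again no treated library reached an STZ one. The differences were -0.30 (SE 0.0824, limma adjusted p = 0.00628), -0.46 (adjusted p = 0.000237) and -0.42 (adjusted p = 0.000656); for STZ+AOS the sign turned after quantile normalization (0.09) and median centring (0.05), uncalled.

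Some marker sums were lower in the treated groups than in STZ as well, and others were not. Spermatogonia markers summed to between 69.54 and 77.5 FPKM over the 9 treated libraries, against 112.9 to 121.8 FPKM in STZ, and Sertoli markers to between 672.8 and 776.6 FPKM, against 1621 to 2082 FPKM in STZ. Leydig markers summed to 1990 to 2537 FPKM in STZ+AOS, 3155 to 3585 in STZ+AOS-FMT and 2909 to 3973 in STZ+control-FMT libraries, against 1799 to 12810 in STZ. Epididymis markers summed to 381 to 627.1 FPKM in STZ+control-FMT libraries, against 262.4 to 376.1 in STZ and 275.3 to 485.3 in control, and their blood marker sums were 290.1 to 651.6 FPKM, against 54.5 to 387.9 in STZ and 95.49 to 135.3 in control. Macrophage markers summed to 59.15 to 89.87 FPKM over the 9 treated libraries, against 170.3 to 342.1 in STZ. Their part in the differences was not tested.

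The calls of Meiob and Hfm1 in STZ+AOS-FMT stood close to the threshold. Meiob was at 12.25, 12.09 and 11.77 FPKM in STZ+AOS-FMT libraries, against 11.82, 14.95 and 17.24 in STZ libraries, overlapping through STZ replicate 1 (-0.25, limma adjusted p = 0.0449). Hfm1 was at 5.21, 4.6 and 5 FPKM in STZ+AOS-FMT libraries, against 5.37, 5.93 and 7.08 in STZ libraries, with no overlap (-0.26, limma adjusted p = 0.0407). Both calls were lost without STZ replicate 2, STZ replicate 3, STZ+AOS-FMT replicate 2 or STZ+AOS-FMT replicate 3, and that of Meiob without STZ+AOS-FMT replicate 1; without STZ replicate 3 the differences were -0.13 and -0.16 (adjusted p = 0.264 and 0.21). Both turned positive, uncalled, after quantile normalization (0.03 and 0.16). Without STZ replicate 1 both were called lower in all 3 treated groups, by -0.36 and -0.31 in STZ+AOS, -0.39 and -0.34 in STZ+AOS-FMT and -0.29 and -0.26 in STZ+control-FMT, and Msh4 also in STZ+control-FMT (-0.24). Spo11, Msh4, Msh5 and Mlh3 were uncalled in all 3 as deposited, between -0.17 (Msh4 in STZ+control-FMT) and 0.004 (Mlh3 in STZ+AOS).

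**Figure D4:**
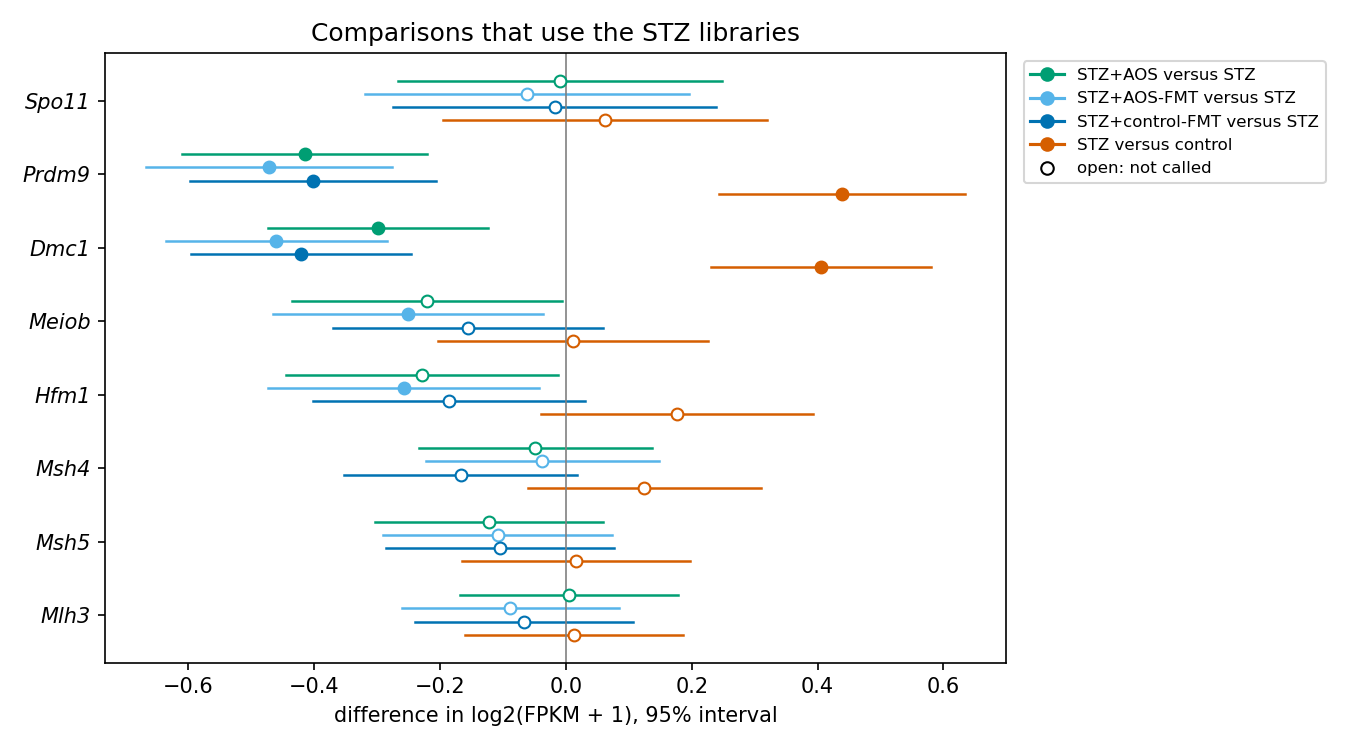
Differences in log2(FPKM + 1) with 95% intervals (x axis) for the 8 genes in the 4 comparisons that share the STZ libraries; open symbols are uncalled. Prdm9 lies between -0.47 and -0.40 against STZ and at 0.44 for STZ against control, Dmc1 between -0.46 and -0.30 and at 0.41; these calls are lost after quantile normalization or median centring, and in STZ+AOS the sign of Dmc1 turns under both and that of Prdm9 under quantile normalization.

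Against control, the treated STZ groups gave no called member. The median of the 8 genes was 0.02 in STZ+AOS, -0.07 in STZ+AOS-FMT and -0.03 in STZ+control-FMT. At an unadjusted p under 0.05 there were 0, 1 and 0 members. Over all tested genes, 6 were called in STZ+AOS (0.0424%) and 0 in each of the transplant groups (0%), with 1130 (7.98%), 927 (6.54%) and 883 (6.23%) at an unadjusted p under 0.05. The 1 member was Meiob in STZ+AOS-FMT, at 12.04 ± 0.244 FPKM in STZ+AOS-FMT against 14.4 ± 0.713 FPKM in control (log2 difference -0.24, SE 0.101, limma adjusted p = 0.72). Its 12 libraries in the STZ+AOS, STZ+AOS-FMT, STZ+control-FMT and AOS groups ran from 11.57 to 13.84 FPKM, and the 3 control libraries from 13.88 to 15.21 FPKM, so none of the 12 reached control. The nearest libraries stood at 13.84 FPKM among the 12 and 13.88 FPKM in control. Taken 1 group at a time, all 3 libraries lay below control in 8.86% (STZ+AOS), 10% (STZ+AOS-FMT), 5.71% (STZ+control-FMT) and 14.7% (AOS) of all tested genes. The share of genes with all 12 libraries below control was not worked out. In no comparison of these groups with control was Meiob called. The 95% intervals of Prdm9 against control were -0.171 to 0.22 in STZ+AOS, -0.227 to 0.164 in STZ+AOS-FMT and -0.158 to 0.232 in STZ+control-FMT, and its level there was not shown to be equal to control.

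AOS alone against control gave 0 called members and 0 called genes (0%), with 0 members and 1273 genes (8.99%) at an unadjusted p under 0.05. Member differences lay between -0.14 (Meiob) and 0.14 (Spo11, whose AOS libraries were at 21.27, 28.19 and 23.3 FPKM, the second being the highest of all 18). The transplants against each other, STZ+AOS-FMT against STZ+control-FMT, likewise gave 0 called members and 0 called genes (0%), with 0 members and 866 genes (6.11%) at an unadjusted p under 0.05. Msh4 differed most, at 5.68, 4.88 and 5.92 FPKM in STZ+AOS-FMT libraries, against 4.99, 5.18 and 4.61 FPKM in STZ+control-FMT libraries (0.13, 95% interval -0.0557 to 0.315), and the groups overlapped. Hfm1 was the other member with AOS libraries (4.99, 5.17 and 5.05 FPKM) all below the control ones (5.22, 5.27 and 5.34 FPKM), at a difference of -0.05.

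Across all 6 groups an F test called Prdm9 (limma adjusted p = 0.00285) and Dmc1 (adjusted p = 0.00199), 2 of 8 against 52.3% of all tested genes. A contrast added after the values had been seen, the effect of AOS with STZ minus its effect without STZ, called the same 2 of 8 genes, Prdm9 (-0.38, SE 0.13, limma adjusted p = 0.0319) and Dmc1 (-0.31, SE 0.117, adjusted p = 0.047), against 35.2% of all tested genes. After quantile normalization both turned to just above 0 (0.01 and 0.04), uncalled. Msh4 (0.38) and Mlh3 (0.47) were called in their place, in the opposite direction. The share of all tested genes called in the contrast after quantile normalization was not worked out.

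The genes with profiles most like each member were found from log2(FPKM + 1) values centred on each gene's mean over the 18 libraries, by the root mean square difference. The nearest to Prdm9 were Sash1 (0.054), Hnrnpab (0.056) and Acaca (0.057), and to Dmc1 Rela (0.063), Atxn7l3 (0.077) and Kmt2d (0.080). Spo11 had Aamdc, D030056L22Rik and Ube2t, Meiob had Ythdc2, Hspa12a and Pspc1, and Hfm1 had Papolg, Slc30a9 and Heatr1. Msh4 had Stip1, Atf1 and Pank2, Msh5 had Tmem230, Naa40 and Exd1, and Mlh3 had Ift80, Kpnb1 and Ankle2. No member was among the 3 nearest of another. Dmc1 was the nearest member to Prdm9, at rank 2271 with a difference of 0.13, and Prdm9 was at rank 1097 for Dmc1. The closest pair by rank was Hfm1 for Meiob, at rank 84.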

How the data were processed

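RNA was taken up in Trizol from frozen testes, purified on a column, and 1 µg went into Illumina libraries, per the labels' protocols. The submitters' processing notes name Bowtie 0.12.2 and mm10; no source used here gives the counting tool, annotation or strand. In the deposited table each gene has 1 value per library, with no unit named. The values the authors deposited were read as FPKM, which cannot be told apart from RPKM here, because the lowest steps of rarely detected genes fall with transcript length: over 174 genes, step times length had medians of 82.5, 75.1 and 76.5 in 3 classes of increasing length, with a log-log slope of -0.71. A looser first selection of 393 genes gave a slope of -0.52 and was replaced after it was seen; 53.8% of its 1804 ratios to the step were whole within 0.15, and 67.7% of 223 in the second, so whole reads were not recovered and read depth is unknown.

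From these values, limma 3.58.1 (R 4.3.3, limma-trend) was fitted to log2(FPKM + 1) of the 14164 genes at 1 or more in at least 3 of 18 libraries, with all 18 libraries in 1 model (12 residual degrees of freedom) and no replicate block. A fold change on this scale understates changes of low genes such as Prdm9, and folds given as times are ratios of mean FPKM. Adjusted p-values are Benjamini-Hochberg over all tested genes within a comparison, two-sided except the F test. The fit was tested on simulated data in which few genes changed. That test does not cover a shift of the tested genes as a whole, as between STZ and control. Alternatives were a pseudocount of 0.1, no filter, quantile normalization, median centring, centring on 15 axis genes, a replicate block, only the 2 groups compared, and leaving out each replicate. Replicate numbers do not pair libraries: residual correlations of same-numbered libraries ran from -0.205 to 0.201.

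Named genes are all 8 members, per list at most 4 with the smallest p in STZ against control, Sycp1, Sycp3 and Stra8, and the 3 nearest profiles per member. Of 20982 distinct symbols 96.5% matched GENCODE M21. Members, lists and tests were chosen with earlier results of these data known. Some genes of the rule and lists are not reported here.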

Additional observations from a re-analysis of the deposited data

Results flagged for a closer look

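The effect of AOS was set between mice with and without STZ, a contrast added after the values had been seen. For Prdm9 the AOS effect was -0.42 with STZ (STZ+AOS against STZ) and -0.03 without it (AOS against control), so the effects differed by -0.384 on the log2 scale (SE 0.13, limma adjusted p = 0.0319). For Dmc1 they were -0.30 with STZ and 0.01 without it, a difference of -0.314 (SE 0.117, limma adjusted p = 0.047). These 2 of 8 genes stand against 35.2% of all tested genes (4984) called in the same contrast. Both calls are close to the threshold, and at least 1 of them was lost without any 1 of the 12 libraries other than STZ replicate 1. Both were lost without STZ+AOS replicate 2, STZ+AOS replicate 3, STZ replicate 3 or control replicate 3. Leaving out 1 of the 12 libraries kept Prdm9 called in 4 of 12 fits (adjusted p 0.000925 to 0.0874) and Dmc1 in 5 of 12 (0.0349 to 0.128), the differences staying between -0.499 and -0.299 and between -0.365 and -0.235. After quantile normalization they were 0.01 and 0.04, uncalled, and after median centring -0.08 and -0.006, uncalled. Under both scalings 2 other genes were called instead, with positive differences: Msh4 by 0.384 (limma adjusted p = 0.0177) and Mlh3 by 0.469 (adjusted p = 0.00837) after quantile normalization, and by 0.329 (adjusted p = 0.0265) and 0.439 (adjusted p = 0.00607) after median centring. The share of all tested genes called in this contrast under these 2 scalings was not worked out. The groups hold 3 libraries each, so single outlying libraries were not tested for.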

How the results depend on the processing

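Prdm9 and Dmc1 stayed called, in the same direction, in all 6 fits without 1 replicate, with a pseudocount of 0.1, without a filter and with axis centring, in STZ against control and in each treated STZ group against STZ; when only the 2 groups compared were fitted, Prdm9 was lost in STZ+control-FMT (-0.40, adjusted p = 0.0557). Axis centring hardly changed the values of STZ against control. Prdm9 and Dmc1 both lost all 4 calls under quantile normalization and median centring.

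Values that turned sign were these, as log2 differences. After quantile normalization, STZ against control gave -0.256 (Meiob), -0.218 (Hfm1), -0.274 (Msh4), -0.374 (Msh5) and -0.36 (Mlh3). STZ+AOS against STZ gave 0.0116 (Prdm9), 0.0878 (Dmc1), 0.353 (Msh4) and 0.282 (Msh5). STZ+AOS-FMT against STZ gave 0.0348 (Meiob), 0.162 (Hfm1), 0.385 (Msh4), 0.308 (Msh5) and 0.305 (Mlh3), and STZ+control-FMT against STZ 0.248 (Msh5) and 0.271 (Mlh3). The contrast of AOS effects gave 0.00987 (Prdm9) and 0.0368 (Dmc1). After median centring, STZ against control gave -0.331 (Meiob), -0.218 (Msh4), -0.326 (Msh5) and -0.33 (Mlh3). STZ+AOS against STZ gave 0.338 (Spo11), 0.0479 (Dmc1), 0.299 (Msh4) and 0.225 (Msh5). STZ+AOS-FMT against STZ gave 0.303 (Spo11), 0.114 (Meiob), 0.106 (Hfm1), 0.327 (Msh4), 0.256 (Msh5) and 0.276 (Mlh3), and STZ+control-FMT against STZ 0.207 (Msh5) and 0.246 (Mlh3). The cause was not tested. Where neither value was called, 123 of 875 pairs changed sign and are not listed.

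Counts of called members moved as follows. In STZ against control they were 2 as deposited, 5 after quantile normalization and 4 after median centring, and 2 to 3 without 1 replicate. The 5 and the 4 were all lower, as were most of the 7249 and 8797 tested genes called under those scalings. STZ+AOS against STZ had 2, and 4 after median centring (Spo11, Msh4, Msh5 and Mlh3, all higher), with 2 to 4 without 1 replicate (4 without STZ replicate 1). After quantile normalization it had Msh4, Msh5 and Mlh3, all higher. STZ+AOS-FMT against STZ had 4, but 2 without a filter, with axis centring and with only the 2 groups, and 2 to 4 without 1 replicate. After median centring it also had 4, but these were Spo11, Msh4, Msh5 and Mlh3, all higher. After quantile normalization they were Msh4, Msh5 and Mlh3, again all higher. STZ+control-FMT against STZ had 2, but 1 with only the 2 groups, and 2 to 5 without 1 replicate (5 without STZ replicate 1). After quantile normalization or median centring the 2 were Msh5 and Mlh3, both higher. For the treated groups the share of all tested genes called after these scalings was not worked out. The F test had 2, and 4 after median centring, where its share of all tested genes was not worked out either. The contrast of AOS effects had 2, but 1 without a filter and 1 with the replicate block, and 0 to 2 without 1 replicate. With the replicate block, STZ against control kept 2 called members and STZ+AOS-FMT against STZ had 3 of 4 (Meiob lost, adjusted p = 0.0514). As 4 of 18 libraries correlated best with one of their own number, the block pairs libraries by number only.

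Read depth is unknown, so no counting interval stands behind any value, and low levels such as those of Prdm9 rest on fewer reads than those of Spo11.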
